A study of Mus musculus with 12 samples.

Results

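The genes described here are 10 genes of redox defence in mouse liver: the transcription factor gene Nfe2l2, its repressor Keap1, and 8 genes of enzymes that neutralise oxidants or reactive chemicals, Ephx1, Nqo1, Gclc, Gclm, Txnrd1, Srxn1, Cat and Sod1. They were taken by name from a table of 24527 gene symbols, and all 10 were among the 13204 genes that passed a filter on low counts. They were chosen by name and function, with no contrast or threshold on a measured value, but with the levels and the IVF and sex differences in these same 12 libraries already known. The values of the 10 genes are therefore a description, and the adjusted p-values printed for them say where each stood in a fit over all genes and support nothing further.

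The protein NRF2, encoded by Nfe2l2, is the main switch of the antioxidant response. In resting cells KEAP1 holds it for degradation. When oxidants or electrophiles modify KEAP1, NRF2 accumulates, pairs with a small MAF protein and binds antioxidant response elements, short DNA motifs near its target genes. Hepatocytes rely on this response because they oxidise fatty acids and metabolise drugs. Catalase and the superoxide dismutase SOD1 belong to the standing antioxidant defence and are less dependent on NRF2.

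The liver libraries came from 12 mice aged 39 weeks, 3 in each of 4 groups: females and males conceived naturally, and females and males conceived by in vitro fertilization (IVF), in which the egg is fertilized outside the body. All had CF1 mothers and B6SJL fathers, and the IVF followed a Jackson Laboratory protocol, and the labels name no other treatment. The study compared IVF with natural conception in each sex. An IVF female and an IVF male share the first part of the number in their titles, whose meaning the labels do not give, and no label says which animals were littermates, so that p-values measure the spread between these libraries.

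Library totals were 6826534 to 22073863 counts in IVF females, from 8056230 to 23430136 in natural females, from 14002847 to 21762008 in IVF males and from 23448074 to 27832271 in natural males. No 2 libraries of a group were alike within sampling noise (chi-square per degree of freedom of at least 80.7). The 2 libraries with the smallest totals, IVF female 1 and natural female 2, stood apart in 5 of the 10 genes: both lay above the other 4 female libraries for Cat, Sod1 and Txnrd1, and below them for Ephx1 and Srxn1. Values without both are given beside the log2 fold changes of these genes between females and, for Ephx1 and Cat, between the sexes. Of 8 markers of hepatocytes, the main liver cell, 7 were abundant, from 477 CPM (counts scaled to a common library size) for the lowest library of Tat to 81524 CPM for the highest of Alb. The other, Ass1, was listed at only 0.50 to 4.30 CPM. In such bulk tissue, fewer cells of a type and less RNA per cell cannot be told apart.

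The core of the antioxidant response element was looked for in the promoters, because it is the motif through which NRF2 acts on its targets. RefSeq windows (GRCm38.p6) of 250 bases before to 50 after the start site were matched for 9 of the 10 genes, all but Gclc. The motif TGACNNNGC, in which N is any base, was searched on both strands. It was present in windows of 5 of the 9 genes, Nfe2l2, Srxn1, Gclm, Txnrd1 and Sod1, against 14.0% of the 27025 gene symbols that have a RefSeq window. By window, 5 of 11 held it, against 12.4% of 32851. The sites are printed 5′ to 3′ on the strand of the gene, with the motif in capitals; in 4 of them, all but that of Nfe2l2, the motif is read on the opposite strand.
Nfe2l2 (chr2:75704895-75704903, minus strand, 240 bases before the start): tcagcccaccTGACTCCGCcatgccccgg
Srxn1 (chr2:152105552-152105560, plus strand, 29 bases after the start): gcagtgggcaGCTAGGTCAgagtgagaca
Gclm (chr3:122245423-122245431, plus strand, 134 bases before the start): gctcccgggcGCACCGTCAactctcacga
Txnrd1 (chr10:82859114-82859122, plus strand, 92 bases before the start): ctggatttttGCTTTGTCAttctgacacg
Sod1 (chr16:90220706-90220714, plus strand, 56 bases before the start): gccaaggtggGCGTGGTCAgactcaggcc
A match describes letters and is not a bound site. The coordinates in brackets are those of the 9 motif bases. The Txnrd1 window with the motif, 82858956 to 82859255, lies inside the gene, whose annotated 5′ end is at 82833951. The Txnrd1 window at that end did not hold the motif. The windows of the genes ranged in G and C content from 48.0% to 79.7%, and the share of all windows was not matched to that. Because the genes were chosen by function, NRF2 targets among them, their share was not independent of that choice and nothing is drawn from it.

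Ephx1 and Nqo1, which had the largest fold changes between IVF and natural males, are shown with their whole windows, in which the core motif is not among the letters. Bases farther from the start were not searched. The Ephx1 window lies inside the gene, whose annotated 5′ end is at 181020904, and no window at that end was searched. A missing match here thus does not show that either gene lacks the motif. Capitals mark the first 50 transcribed bases.
Ephx1 (chr1:181017520-181017819, minus strand): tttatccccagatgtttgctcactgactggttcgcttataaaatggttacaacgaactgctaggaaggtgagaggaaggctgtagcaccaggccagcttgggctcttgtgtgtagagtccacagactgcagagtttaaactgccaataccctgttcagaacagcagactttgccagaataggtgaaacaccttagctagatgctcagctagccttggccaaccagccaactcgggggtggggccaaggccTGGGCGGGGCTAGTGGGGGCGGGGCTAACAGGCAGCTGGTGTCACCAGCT
Nqo1 (chr8:107403156-107403455, minus strand): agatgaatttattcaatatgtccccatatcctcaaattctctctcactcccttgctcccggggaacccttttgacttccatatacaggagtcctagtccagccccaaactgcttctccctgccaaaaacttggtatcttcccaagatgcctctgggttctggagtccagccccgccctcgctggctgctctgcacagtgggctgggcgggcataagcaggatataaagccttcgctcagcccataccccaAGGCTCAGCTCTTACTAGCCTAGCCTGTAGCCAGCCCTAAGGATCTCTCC

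Levels were compared between genes per kilobase of mRNA, as CPM scaled by TMM (trimmed mean of M-values) and divided by the length of the longest GENCODE transcript paired with a RefSeq mRNA. Cat, whose product splits hydrogen peroxide in peroxisomes, was the most abundant, with a median of 978 CPM per kilobase over the 12 libraries. Sod1, which turns superoxide into hydrogen peroxide in the cytosol, followed at 733, and Cat lay above it in 12 of 12 libraries although their ranges overlapped. Ephx1 had a median of 179.7 and Gclc one of 117.6, with Ephx1 above Gclc in 11 of 12 libraries.

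Lower levels were found for the other genes, the regulators among them. The medians were 43.7 CPM per kilobase for Txnrd1, 34.0 for Gclm, 27.2 for Nfe2l2, 21.0 for Keap1, 12.1 for Srxn1 and 3.59 for Nqo1. Gclm and Nfe2l2 were the neighbours that changed places most, Gclm being higher in 9 of 12 libraries. The ranges of neighbours overlapped everywhere in this order except between Keap1 and Srxn1. Nqo1, a textbook NRF2 target, was thus the scarcest of the 10 in these livers, at 29 to 255 counts per library.

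**Figure D1:**
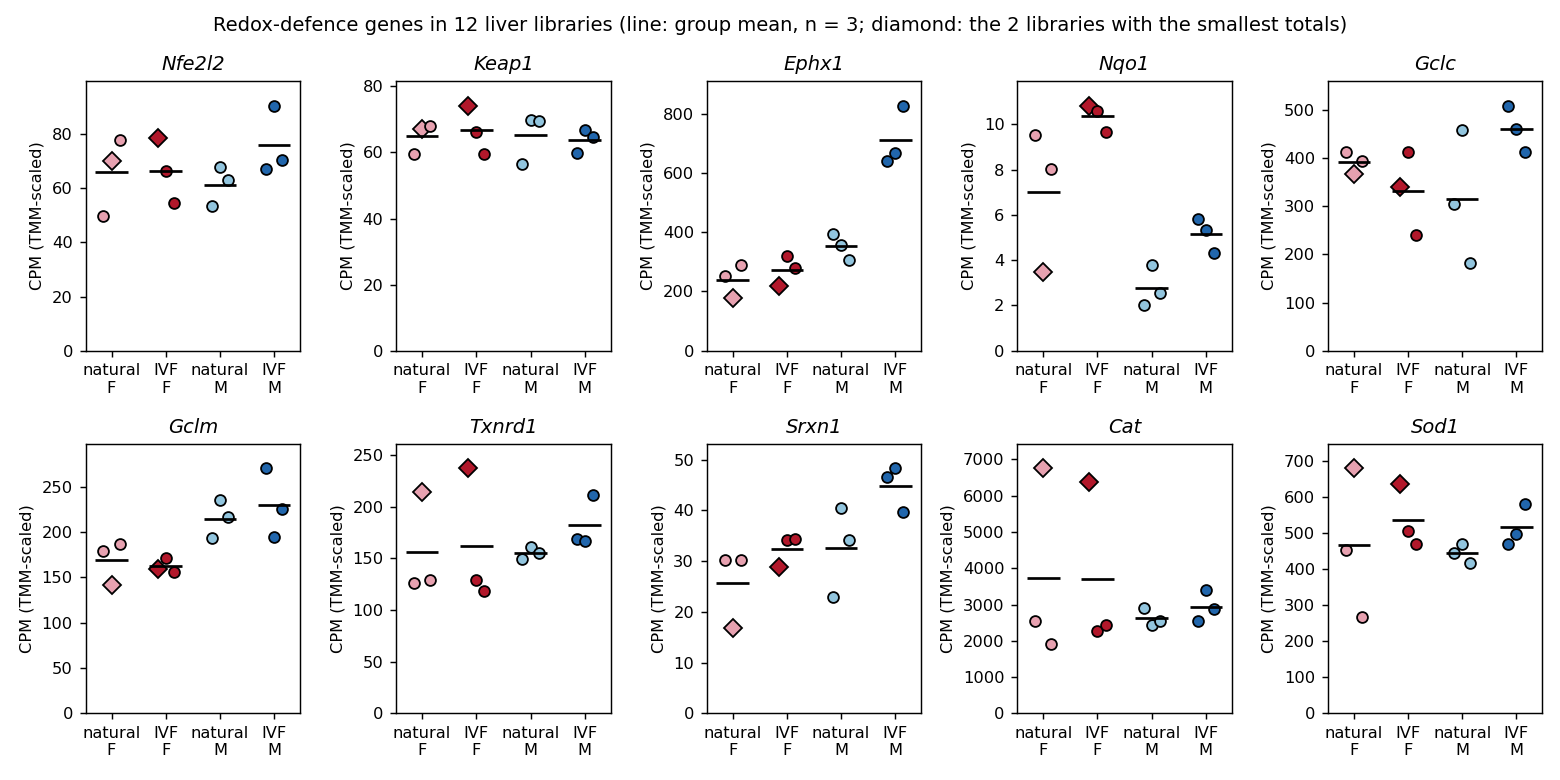
Level of each gene in every library, as TMM-scaled CPM (linear axes from 0), with 3 libraries in each of 4 groups. Horizontal lines are group means and diamonds mark the 2 libraries with the smallest totals, which lie far above the other 10 for Cat; IVF males lie above all other libraries for Ephx1.

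The regulators had the narrowest ranges over the 12 libraries, 1.31-fold for Keap1 and 1.82-fold for Nfe2l2. Keap1 (chromosome 9, 21229730 to 21239361, GRCm38) ranged from 56.6 to 74.2 CPM. The lowest group mean was 63.8 ± 3.52 CPM, in IVF males, and the highest 66.7 ± 7.28 CPM, in IVF females (SD, n = 3 each). Nfe2l2 (chromosome 2, 75675513 to 75704641) ranged from 49.8 to 90.6 CPM.

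Nfe2l2 had 67.0, 90.6 and 70.5 CPM in IVF males and 53.4, 67.7 and 63.2 CPM in natural males. The groups overlapped narrowly, and the log2 fold change was 0.31 ± 0.22 (SE). In females that value was 0.01 ± 0.22 (SE). Neither regulator was called in any of the 6 comparisons, a call being an adjusted p under 0.05 over all genes in edgeR's quasi-likelihood fit.

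IVF was compared with natural conception in males first, where the 10 genes differed most. Of the 10 genes, 9 had a higher mean after IVF, where 51.6% of all genes did. The median log2 fold change of the 10 genes was 0.27, against 0.01 over all genes tested. The libraries did not overlap for 3 of them, Ephx1, Nqo1 and Txnrd1, all higher after IVF, against 4.85% of all genes. None was lower without overlap, against 4.07%, and in either direction 8.91% of all genes were apart. None of the 10 was called by edgeR's test, where 0.00757% of all genes were, 1 in all. At an unadjusted p under 0.05 there were 2 of 10, against 2.69% of all genes, and limma voom called 0. DESeq2 called 1, Ephx1, where it called 0.0379% of all genes.

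Ephx1 encodes microsomal epoxide hydrolase, which opens reactive epoxides formed during drug metabolism, and lies on chromosome 1 (180976210 to 181020904). It had 641, 668 and 827.5 CPM in IVF males. In natural males it had 395, 357 and 305 CPM. Every IVF male lay above every other library of the study, of either sex, and the nearest library of another group was at 395 CPM.

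Mean levels were 712 ± 101 CPM after IVF (SD, n = 3) and 352 ± 45.1 CPM after natural conception (SD, n = 3), a 2.02-fold difference with a log2 fold change of 1.01 ± 0.23 (SE). This was the gene with the 4th smallest unadjusted p-value of 13204 in the comparison. The Benjamini-Hochberg (BH) adjusted p-value was 1 in edgeR and 0.0491 in DESeq2, the lowest of 23 alternatives, over which the log2 fold change stayed between 0.89 and 1.14. In females Ephx1 had 219.7, 320.5 and 279.9 CPM after IVF and 253, 176 and 289 CPM after natural conception. These female groups overlapped, and the log2 fold change was 0.19 ± 0.23 (SE), or 0.16 without both small libraries.

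Markers of liver cell types also differed between IVF and natural males. The sum of the 8 hepatocyte markers, most of it Alb, was 62419 to 69189 CPM in IVF males and 72899 to 87875 CPM in natural males, without overlap. The sum of 9 Kupffer cell and macrophage markers was 177 to 313 CPM in IVF males and 310.4 to 361.5 CPM in natural males, which overlapped. Of these markers, 2 of 8 hepatocyte genes and 1 of 9 Kupffer genes had a higher mean in IVF males, where 51.6% of all genes did. At an unadjusted p under 0.05 there were 0 and 5, against 2.69% of all genes. None of these markers was at 0 in any library, and edgeR called none. Of the other tested markers, 4 of 6 lymphocyte, 2 of 3 red blood cell and 2 of 4 dividing-cell genes had a higher mean. So did 3 of 8 stellate, 0 of 7 endothelial, 0 of 5 bile duct and 0 of 3 neutrophil genes. An unadjusted p under 0.05 was found for 2 lymphocyte genes and 0 of the rest. The part of cell types in the differences of the 10 genes was not tested.

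Nqo1 encodes a quinone reductase that keeps quinones from redox cycling (chromosome 8, 107388225 to 107403206). It had 5.84, 5.31 and 4.30 CPM in IVF males and 2.01, 3.79 and 2.53 CPM in natural males, from 44 to 108 counts per library. The IVF males lay above the natural males, and the log2 fold change was 0.89 ± 0.34 (SE). In females it had 10.8, 10.6 and 9.66 CPM after IVF and 9.55, 3.48 and 8.05 CPM after natural conception. These groups did not overlap either, with the nearest libraries at 9.66 and 9.55 CPM. The female log2 fold change of 0.54 ± 0.33 (SE) was 0.23 without natural female 2, the low library of its group.

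Gclc and Gclm encode the catalytic and the modifier subunit of glutamate-cysteine ligase, which makes the first and limiting step of glutathione synthesis. Gclc (chromosome 9, 77754535 to 77794485) had 509, 461 and 412 CPM in IVF males and 304.5, 458 and 182 CPM in natural males. The groups overlapped through natural male 2, and the log2 fold change of 0.55 ± 0.30 (SE) became 0.91 without that library and 0.27 without natural male 3, the lowest. In females the difference had the other sign, at -0.24 ± 0.30 (SE), with 339.7, 413 and 239 CPM after IVF and 412.5, 368 and 393 CPM after natural conception. Gclm (chromosome 3, 122245557 to 122270732) ranged from 194 to 270.2 CPM in IVF males and from 193 to 235 CPM in natural males, with a log2 fold change of 0.10 ± 0.18 (SE).

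Srxn1 and Txnrd1 serve the thiol systems. Srxn1 (chromosome 2, 152105516 to 152111376) encodes sulfiredoxin, which repairs overoxidised peroxiredoxins. It had 46.6, 48.3 and 39.8 CPM in IVF males against 23.0, 40.4 and 34.2 CPM in natural males, which overlapped at a single natural library, with a log2 fold change of 0.46 ± 0.25 (SE), or 0.27 without natural male 1, the low one. In females the value was 0.33 ± 0.25 (SE), or 0.20 without both small libraries and 0.11 without natural female 2 alone, which had 16.9 CPM against 30.2 CPM in both others. Txnrd1 (chromosome 10, 82833951 to 82897712) encodes cytosolic thioredoxin reductase. It had 169, 167 and 211 CPM in IVF males and 149.6, 161 and 155 CPM in natural males, without overlap but with a log2 fold change of only 0.23 ± 0.28 (SE). That SE also carries the spread of the female libraries, as described for Cat below.

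The standing enzymes had close means in males. Cat (chromosome 2, 103453849 to 103485160) had 2552, 3405 and 2876 CPM in IVF males and 2908, 2447 and 2557 CPM in natural males, with a log2 fold change of 0.16 ± 0.48 (SE). Sod1 (chromosome 16, 90220754 to 90226329) had 469, 499 and 583 CPM in IVF males and 446, 470.4 and 417 CPM in natural males, with a log2 fold change of 0.22 ± 0.29 (SE). Both pairs of groups overlapped. The spread of a gene was estimated over all 12 libraries at once, so these SE also carry that of the female libraries. For Cat the SE was 0.48 in both sexes. Its coefficient of variation (SD over mean) was 14.6% in IVF males and 9.14% in natural males. In IVF and natural females it was 63.0% and 70.3%.

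**Figure D2:**
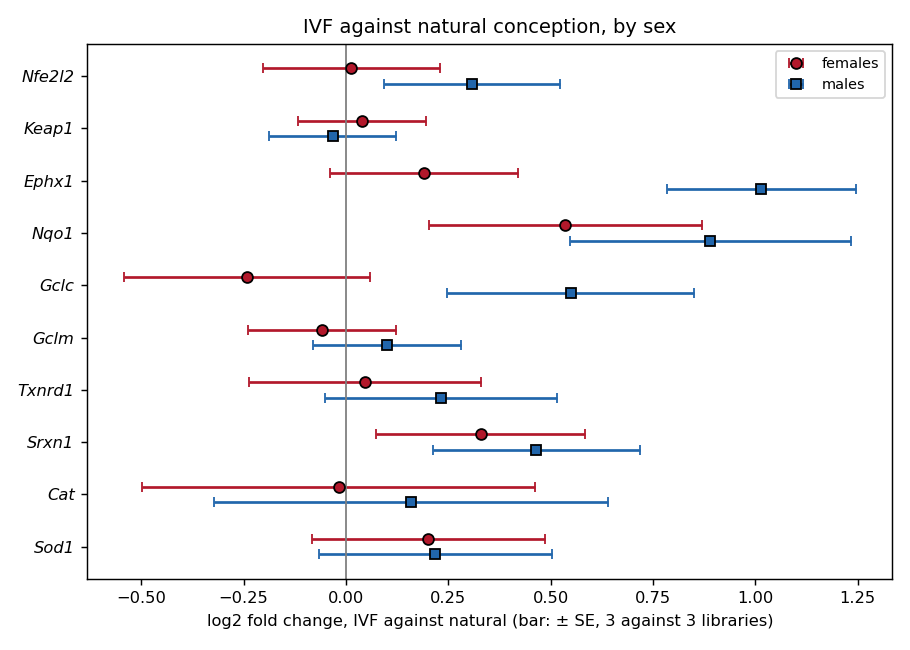
Log2 fold change of each gene, IVF against natural conception, in females (circles) and males (squares), with bars of ± 1 SE from edgeR's fit to 12 libraries. Ephx1 in males lies farthest from 0, at 1.01, while Keap1 lies near 0 in both sexes.

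In females the 10 genes were closer to the genome-wide pattern. IVF libraries had the higher mean for 7 of the 10, and for 47.8% of all genes. The median log2 fold change of the 10 genes was 0.04, against -0.01 over all genes. The groups did not overlap for 1 gene, Nqo1, higher after IVF, against 3.55% of all genes higher and 7.42% in either direction. No member was called by edgeR's test, in which 0% of all genes were, and 0 had an unadjusted p under 0.05, against 3.70% of all genes. DESeq2 and limma voom called 0 of the 10 as well.

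Cat, Sod1 and Txnrd1 in females turned on the 2 libraries with the smallest totals. Cat had 6379 CPM in IVF female 1 and 6755 CPM in natural female 2. The other 4 female libraries ranged from 1919 to 2545 CPM, and the 6 males reached 3405 CPM at most. One such library stood in each female group, and the log2 fold change was -0.02 ± 0.48 (SE). It was 0.09 without both, 0.72 without natural female 2 alone and -0.64 without IVF female 1 alone.

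Txnrd1 had 237 CPM in IVF female 1 and 214 CPM in natural female 2, against 118 to 129 CPM in the other females. Sod1 had 637 and 681 CPM in them, against 268 to 506 CPM. Without both libraries the log2 fold change of IVF against natural females was -0.03 for Txnrd1, against 0.05 ± 0.28 (SE) with them, and 0.46 for Sod1, against 0.20 ± 0.29 (SE). The female value of Txnrd1 turned to -0.31 without IVF female 1 alone. That these libraries also had the fewest counts was measured. Their shares of Rn45s, a ribosomal RNA precursor, were the lowest too, at 0.19% of counts in IVF female 1 and 0.74% in natural female 2. The next lowest was 1.33%, in natural female 3. The part of depth or of RNA quality in these values was not tested.

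Whether IVF acted differently in the sexes was asked by the interaction, the log2 fold change in males minus that in females. It was positive for 9 of the 10 genes and for 53.6% of all genes, with medians of 0.18 and 0.03. Without both small libraries the median of the 10 genes was 0.26, against -0.0022 over all genes. Ephx1 had the largest value, 0.82 ± 0.32 (SE), followed by Gclc at 0.79 ± 0.43 (SE). No gene of the 10 was called by edgeR's test, where 0% of all genes were, and 1 had an unadjusted p under 0.05, against 3.87% of all genes. DESeq2 and limma voom also called 0 of the 10. The IVF difference of Ephx1 was therefore not shown to be particular to males.

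Averaged over both sexes, all 10 log2 fold changes were above 0, as were 49.1% of those of all genes. The median of the 10 was 0.16, against -0.0038 over all genes. Some were within a small part of their error, such as 0.00 ± 0.11 (SE) for Keap1 and 0.02 ± 0.13 (SE) for Gclm. Those of Nqo1, 0.71 ± 0.24 (SE), and of Ephx1, 0.60 ± 0.16 (SE), were the largest. At an unadjusted p under 0.05 there were 3 of 10, the third being Srxn1 at 0.40 ± 0.18 (SE), against 2.69% of all genes. Natural female 2 was the library that moved each of these 3 most. Without it the averages were 0.56 for Nqo1, 0.51 for Ephx1 and 0.28 for Srxn1. No member was called by edgeR, DESeq2 or limma voom, and edgeR called 0.00757% of all genes.

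Males were then compared with females within each mode of conception. These comparisons use the same libraries as those above, so their values are not independent of them. In IVF animals Ephx1 was higher in males, 712 ± 101 CPM (SD, n = 3) against 273 ± 50.7 CPM (SD, n = 3), without overlap. The log2 fold change of 1.38 ± 0.23 (SE) was called (edgeR, BH-adjusted p = 0.00866). It was called under all 23 alternatives, with adjusted p from 7.8e-07 (DESeq2) to 0.0475 (edgeR without IVF male 3). It was the single member called, 1 of 10, where 2.19% of all genes were called. DESeq2 and limma voom called it alone of the 10 too, where DESeq2 called 5.47% of all genes. Without both small libraries its log2 fold change was 1.21. Markers of cell types also differed in this comparison. Kupffer cell and macrophage markers summed to 177 to 313 CPM in IVF males and 368 to 513 CPM in IVF females. All 9 had a lower mean in males, with Vsig4 and Clec4f called. The hepatocyte sum was 62419 to 69189 CPM in IVF males and 85569 to 96075 CPM in IVF females, with 4 of 8 genes lower, and of 6 tested lymphocyte markers 4 were lower, with Ptprc called. Of the other tested markers, 6 of 7 endothelial, 5 of 8 stellate and 4 of 5 bile duct genes had a lower mean in IVF males. So did 3 of 3 neutrophil, 3 of 4 dividing-cell and 0 of 3 red blood cell genes. An unadjusted p under 0.05 was found for 2 endothelial, 2 stellate and 1 red blood cell gene, against 14.9% of all genes, and edgeR called 0. The part of cell types in the difference of Ephx1 was not tested. In natural animals the groups did not overlap either, at 352 ± 45.1 CPM (SD, n = 3) in males and 239.5 ± 57.5 CPM (SD, n = 3) in females. That log2 fold change, 0.56 ± 0.23 (SE), was not called (edgeR, BH-adjusted p = 0.283), and it was 0.36 without both small libraries.

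Nqo1 had the lower mean in males, though edgeR did not call it. Its mean was 2.78 ± 0.92 CPM in natural males against 7.02 ± 3.16 CPM in natural females, and 5.15 ± 0.78 CPM in IVF males against 10.4 ± 0.62 CPM in IVF females (SD, n = 3 each). The log2 fold changes were -1.36 ± 0.34 (SE) and -1.01 ± 0.34 (SE), with BH-adjusted p of 0.0804 and 0.178 in edgeR. In natural animals the groups overlapped through natural female 2. Without that library edgeR gave -1.66 with an adjusted p of 0.0124, which is a call. It was called in 5 of 23 alternatives, of which DESeq2, library size alone and a term for both small libraries kept that library, and the fit without both small libraries gave -1.68.

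In natural animals 0 of the 10 genes were called by edgeR, where 1.77% of all genes were. At an unadjusted p under 0.05 there were 2, Ephx1 and Nqo1, against 14.9% of all genes. DESeq2 called 1, Nqo1, where it called 5.14% of all genes, and limma voom called 0. Ephx1 and Gclm were higher in males without overlap, 2 of 10, against 10.1% of all genes higher, 9.85% lower and 20.0% in either direction. In IVF animals Ephx1, Gclm and Srxn1 were higher in males without overlap, 3 of 10 against 11.8%, and Nqo1 was lower, 1 of 10 against 10.1%, which made 4 of 10 against 21.8% in either direction. At an unadjusted p under 0.05 there were 3 in IVF animals, Ephx1, Nqo1 and Gclm, against 14.9% of all genes. The median log2 fold change of the 10 genes, males against females, was -0.04 in natural and 0.19 in IVF animals, against -0.02 and 0.01 over all genes. Without both small libraries the medians of the 10 genes were 0.15 and 0.32, against -0.0021 and 0.0012 over all genes.

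Gclm had 193 to 235 CPM in natural males and 142 to 187 CPM in natural females. After IVF its levels were 194 to 270.2 CPM in males and 156 to 172 CPM in females. Its log2 fold changes, males against females, were 0.34 ± 0.18 (SE) and 0.50 ± 0.18 (SE). Cat showed how far the small libraries reach: in natural animals its value was -0.50 ± 0.48 (SE) with all libraries and 0.23 without both, and in IVF animals -0.33 ± 0.48 (SE) and 0.29.

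**Figure D3:**
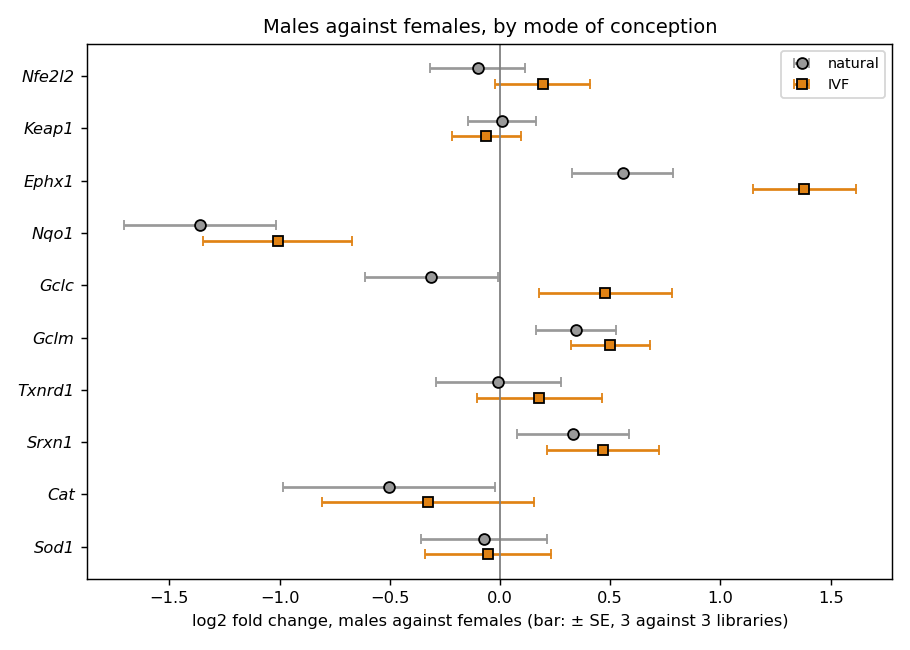
Log2 fold change of each gene, males against females, in natural (circles) and IVF (squares) animals, with bars of ± 1 SE from the same fit. Ephx1 lies to the right and Nqo1 to the left of 0 in both.

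Other genes of the pathway were taken from 5 lists of 99 genes in all, of which 93 were tested. Between IVF and natural animals edgeR called 0 of the 93 in either sex. At an unadjusted p under 0.05 there were 2 in females, against 3.70% of all genes, and 9 in males, against 2.69%. DESeq2 and limma voom also called 0 in either sex. The medians of the log2 fold changes were 0.07 in females and 0.02 in males. By list, in females and males, they were -0.03 and 0.07 for 15 partners and regulators of NRF2, 0.11 and 0.17 for 33 other NRF2 targets, -0.07 and 0.03 for 19 genes of glutathione metabolism, and 0.09 and -0.12 for 18 thioredoxin and peroxiredoxin genes. All 12 tested genes of the list of other superoxide dismutases and peroxide makers had a higher mean in IVF females, with a median of 0.28, where 47.8% of all genes were higher. In IVF males 3 of 12 were higher, with a median of -0.22, where 51.6% of all genes were. None of these 12 was called in either comparison or in the interaction by edgeR, and 0, 1 and 2 had an unadjusted p under 0.05, against 3.70%, 2.69% and 3.87% of all genes.

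**Figure D4:**
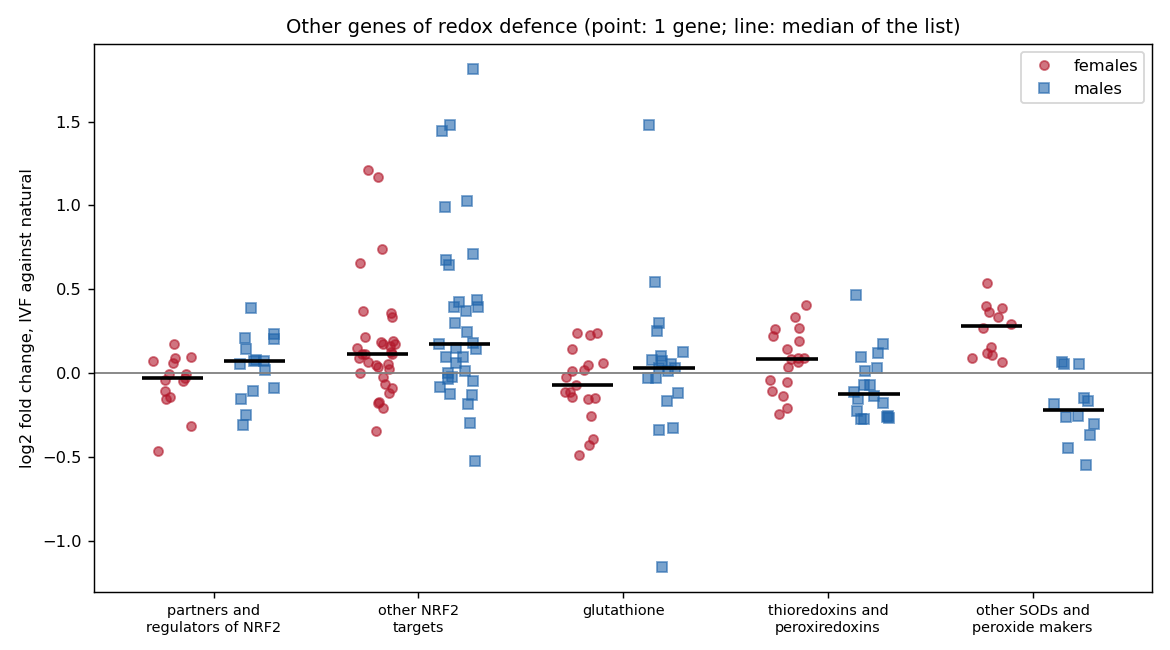
Log2 fold change, IVF against natural, of each tested gene of the 5 lists, in females (circles) and males (squares), with black lines at the list medians. Genes that stand in 2 lists are drawn in both, and the last list has all its female points above 0 and 9 of 12 male points below 0.

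Among the other NRF2 targets, Abcc4, an exporter of organic anions and nucleotide-linked compounds, had the smallest unadjusted p-value in females and in the average. It had 16.3, 16.9 and 10.0 CPM in IVF females and 4.61, 8.39 and 5.85 CPM in natural females, a log2 fold change of 1.21 ± 0.30 (SE). In males it had 3.57, 2.85 and 3.40 CPM after IVF and 1.28, 1.30 and 2.21 CPM after natural conception, a log2 fold change of 1.02 ± 0.32 (SE). IVF libraries lay above natural ones in both sexes without overlap. For the average, 1.12 ± 0.22 (SE), the BH-adjusted p was 1 in edgeR and 0.0158 in DESeq2.

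The transferase gene Gsta1 had the smallest p-value of that list in males, with 21.2, 7.33 and 26.4 CPM after IVF against 7.77, 4.04 and 3.79 CPM. These groups overlapped, the log2 fold change was 1.81 ± 0.52 (SE), and reads may be shared with its close paralogs. Other list genes with the smallest p-values in males were Gpx3, the secreted glutathione peroxidase, at -1.15 ± 0.37 (SE), Bach2, a BACH-family repressor, at 0.39 ± 0.27 (SE), Txnrd3 at 0.46 ± 0.25 (SE), and Cybb, the phagocyte oxidase subunit, at -0.44 ± 0.19 (SE). In females they were Glo1 at -0.39 ± 0.23 (SE), Bach2 at -0.46 ± 0.27 (SE), Msrb2 at 0.40 ± 0.24 (SE) and Cybb at 0.39 ± 0.19 (SE). In edgeR the BH-adjusted p of each of these was 1.

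The difference of the IVF effects, males minus females, and their average gave 0 calls by edgeR among the 93 genes, with 5 and 7 at an unadjusted p under 0.05, against 3.87% and 2.69% of all genes. DESeq2 called 0 for the difference and 1 for the average, Abcc4, where it called 0.0303% of all genes, and limma voom called 0 for both. For the difference the smallest p-values of the 5 lists belonged to Bach2 at 0.85 ± 0.39 (SE), Gsta1 at 1.93 ± 0.74 (SE), Glo1 at 0.51 ± 0.32 (SE), Msrb2 at -0.63 ± 0.34 (SE) and Cybb at -0.83 ± 0.27 (SE). For the average, beside Abcc4, they belonged to Gpx3 at -0.79 ± 0.26 (SE), Txnrd3 at 0.40 ± 0.18 (SE), Btrc, which helps to mark NRF2 for degradation, at 0.14 ± 0.14 (SE), and Nox4 at 0.16 ± 0.23 (SE).

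Between the sexes edgeR called 4 of the 93 genes in natural animals, 2 higher and 2 lower in males, where 1.77% of all genes were called. In IVF animals it called 7, 4 higher and 3 lower, where 2.19% were, and these held all 4 called in natural animals. Those 4 were Gstp1, a glutathione transferase, Nox4, which makes hydrogen peroxide, Abcc4 and Cbr1, a carbonyl reductase. Gstp1 had 1479 ± 725 CPM (SD, n = 3) in natural males against 131 ± 24.2 CPM (SD, n = 3) in natural females, a log2 fold change of 3.50 ± 0.38 (SE), and reads may be shared with its paralogs. Nox4 had 69.2 ± 18.3 CPM (SD, n = 3) against 8.53 ± 2.24 CPM (SD, n = 3). Cbr1 was lower in natural males, by a log2 fold change of -0.84 ± 0.16 (SE), and so was Abcc4, by -1.95 ± 0.32 (SE). The other 3 called in IVF animals were Gsta1 and Glo1, higher in males, and Cybb, a phagocyte gene, lower in males, beside the lower Kupffer markers of IVF males given above, whose part was not tested. Glo1, whose product detoxifies methylglyoxal, was close to the threshold, at a BH-adjusted p of 0.0497 in edgeR.

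Ephx1 and Nqo1 are also known targets of other xenobiotic receptors, CAR and PXR for Ephx1 and AHR for Nqo1, so genes of those receptors were set beside them. Of 11 genes of the CAR and PXR list, edgeR called 0 for IVF in both sexes, and 0 and 2 had an unadjusted p under 0.05 in females and males, against 3.70% and 2.69% of all genes. Cyp2b10, the textbook CAR target, was lower in IVF males without overlap, at 1.10, 15.7 and 4.35 CPM against 41.0, 42.2 and 24.3 CPM in natural males. Its log2 fold change was -2.33 ± 0.70 (SE), and its BH-adjusted p was 1 in edgeR. The part of CAR, PXR or AHR in the differences of Ephx1 and Nqo1 was not tested. Por, the electron donor of the cytochromes P450, had the smallest p-value of the list in females, at 0.50 ± 0.24 (SE), and for the difference of the IVF effects, at -1.22 ± 0.35 (SE), neither of them called. Between the sexes 2 of the 11 were called in each mode of conception, Cyp2b9 and Cyp2b13, both lower in males, where 1.77% of all genes were called in natural and 2.19% in IVF animals. Cyp2b9 had 498 ± 65.8 CPM (SD, n = 3) in natural females against 10.1 ± 9.60 CPM (SD, n = 3) in natural males, and the close paralogs of the family may share reads.

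For AHR, edgeR called 0 of 7 tested genes in any comparison, and 1 and 0 had an unadjusted p under 0.05 between IVF and natural females and males, against 3.70% and 2.69% of all genes. For the average the smallest p-value was that of Ugt1a6a, at 0.18 ± 0.16 (SE). Cyp1a2, an AHR target that liver expresses without an inducer, had the higher mean in IVF females, 807 ± 268 CPM (SD, n = 3) against 525 ± 66.4 CPM (SD, n = 3). Its mean was lower in IVF males, 640.4 ± 60.0 CPM (SD, n = 3) against 919.8 ± 185 CPM (SD, n = 3). Both pairs of groups were without overlap, and the interaction of -1.14 ± 0.35 (SE) was not called (edgeR, BH-adjusted p = 1).

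Genes whose levels followed those of the most variable members were looked for over the 12 libraries among 11802 other genes that averaged 1 CPM or more, by Pearson's r of log2 CPM. The values are a description without a test, since libraries share sex, group and depth. Nearest to Ephx1 were Ikbkg, at r = 0.94, and Uba2, at 0.93, and Ikbkg had 94.1 CPM on average in IVF males against 50.3 to 67.7 CPM in the other group means. For deviations from the group means their r was 0.85 and 0.73. For Cat they were Rap1a and Nkap, both at 0.98 with the 2 small libraries far above the rest, and at 0.97 and 0.86 without them, an alternative chosen after seeing the data. Nqo1 was most like Rfx5, at 0.89, and Gm8883, at 0.88, or 0.76 and 0.71 for deviations from the group means. Gclc had no close match, with Impa2 at 0.80 and Mdfic at 0.79.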

How the data were processed

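Poly-A selected liver RNA was sequenced on an Illumina NextSeq 500, per the labels' protocols. The deposited values are raw read counts for each gene symbol, made by the authors, with 1 column per library. The submitters' processing notes list Trimmomatic 0.32, STAR 2.3.0e, featureCounts 1.5.0 and the build mm10. Which annotation was used, whether strand was, and how multi-gene reads were counted are not given in the sources used here. Groups came from the sample titles, and replicates are numbered in accession order.

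Genes were tested with edgeR 4.0.16 (R 4.3.3): filterByExpr by group, TMM scaling, and 1 quasi-likelihood fit over all 12 libraries with a mean per group. A gene was called where its p, adjusted by Benjamini-Hochberg over the 13204 genes tested, was under 0.05. CPM are TMM-scaled, and log2 CPM use a prior count of 2. Standard errors were taken as the size of each log2 fold change over the square root of its F. They rest on a spread of each gene estimated over all groups together, not on that of the compared groups alone. Positions and lengths are from GENCODE M21 (GRCm38), which matched 23805 of the symbols. Intervals and tests cover the spread between libraries, and the total counts given with the groups set the counting error.

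The members and gene lists were chosen with earlier results of these data known. Named are all members, called genes of the lists (at most 4 per list and comparison), for an IVF comparison without a call the gene of smallest unadjusted p, and for the 4 most variable members the 2 genes of highest r. Alternatives were other scalings, filters and tests (DESeq2 1.42.0, limma voom 3.58.1), an offset for GC content (loess, span 0.5), fewer libraries, and leaving out Rn45s, a ribosomal RNA precursor that took 0.19% to 3.76% of counts. The model code was tested on simulated data.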

Additional observations from a re-analysis of the deposited data

How the results depend on the processing

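Over 11 alternatives and 12 fits that left out 1 library, the log2 fold change of IVF against natural males kept its sign for 8 of the 10 genes, all but Gclm and Keap1, and that in females for 4 of the 10, Ephx1, Nqo1, Gclc and Srxn1. For males against females the sign held for 4 genes in natural and 7 in IVF animals. By library size alone the median over all genes moved to 0.14 in the male IVF comparison, 0.23 in the interaction and -0.34 between natural sexes, and the median of the 10 genes to 0.40, 0.38 and -0.33. A term for the 2 smallest libraries gave medians of the 10 genes, males against females, of 0.20 in natural and 0.32 in IVF animals, and leaving both out gave 0.15 and 0.32.

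Counts over all genes moved more. DESeq2 called 4 genes between IVF and natural females, 5 between males, 9 for the interaction and 4 for the average, and limma voom called 0 between males and 0 for the average. The GC offset left 0 for the average. Between natural sexes there were 510 by library size alone (88 higher and 422 lower in males, against 118 and 116 with TMM), 678 in DESeq2, 139 from only the libraries compared and 458 with a term for the smallest libraries. Between IVF sexes DESeq2 gave 721 and that term 438. Among the 93 other redox genes DESeq2 called 1 for the average, Abcc4, and 14 between IVF sexes, where it called 5.47% of all genes, and only the libraries compared gave 2 between natural and 4 between IVF sexes. The cause of these moves was not tested, except that fewer libraries entered the last fits.

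Leaving out 1 library gave 0 to 1 calls for the male comparison and the average, with 0 without natural male 2 or 3 for both, and without natural female 1 or natural male 1 for the average. It gave 111 to 263 calls between natural sexes, with 149 and 142 without natural females 1 and 2, and 154, 126 and 111 without natural males 1, 2 and 3. Between IVF sexes it gave 137 to 348, with 155 without IVF female 2, and 189, 183 and 137 without IVF males 1, 2 and 3. Redox genes called were 2 to 4 between natural sexes, fewest without natural male 2, and 4 to 9 between IVF sexes, fewest without IVF male 3. Medians of the 10 genes went from -0.024 to 0.19 in females, 0.15 to 0.38 for the interaction, -0.11 to 0.17 between natural and 0.036 to 0.32 between IVF sexes. No paired analysis was possible because the only number that titles of different groups share, in 1 IVF female and 1 IVF male, links a single pair. With 3 libraries a group, differences as small as those of most of these genes could not be told from the spread.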
